A study of Mus musculus with 4 samples.

Results

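The genes described here are 9 regulators and markers of the neural lineage, Pax6, Pax3, Neurog2, Zic1, Olig2, Pou3f2, Dcx, Fabp7 and Ncam1. They were chosen by gene name in the deposited transcript table, and 9 of 52327 gene names and 53 of 160308 transcripts belong to them. RNA sequencing was done on total RNA of 46C, a line of mouse embryonic stem cells with a GFP reporter inserted at Sox1, an early neural gene. The control group, ESCs, held 2 libraries of cells in 2i medium, in which inhibitors of MEK and GSK3 keep cells naive. The other group, rfISCs, held 2 libraries of the same line in PIF medium, described as intermediate between rosette and formative stem cells. No agent in PIF is spelled out in the labels, both groups are 1 cell line, and separate cultures are not stated for the replicates, so each p-value reflects only how far these libraries scatter, and that scatter may be technical.

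The neural plate forms from the epiblast when cells leave pluripotency and take up an ectodermal fate, and early regulators are switched on before any neuron is born. Pax and Zic transcription factors mark and pattern the plate, proneural factors such as Neurog2 then drive progenitors to become neurons, and Olig2 marks motor neuron and oligodendrocyte progenitors. Dcx and Fabp7 are read as markers of young neurons and of radial glia, whereas Ncam1 encodes an adhesion molecule that embryonic stem cells also carry.

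Library totals ran from 19243701 to 23780989 estimated counts. Levels below are in CPM, counts scaled to a common library size that was corrected by the TMM method, unless they are called counts or TPM. TPM, a scaled transcript abundance, also divides by transcript length and is the scale used between genes. All 6 naive pluripotency markers fell and all 6 formative epiblast markers rose, and the summed level of the naive list was 3190 and 3270 CPM in ESCs and 758 and 760 CPM in rfISCs. Among the naive genes, the transcription factor gene Tbx3 fell 6.75-fold and Tfcp2l1 fell 5.88-fold. Of the formative genes, the growth factor gene Fgf5 rose 17.3-fold.

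Pax6, Pax3, Zic1 and Dcx rose in rfISCs and Ncam1 fell, while Neurog2, Fabp7, Pou3f2 and Olig2 had too few counts to be tested. A gene counts as changed where edgeR's quasi-likelihood test gave a Benjamini-Hochberg adjusted p under 0.05, which 53.7% of the 16355 tested genes did, 27.3% higher and 26.4% lower. Against that background 5 of 5 tested members were called, 4 higher and 1 lower. Pax3, Zic1 and Dcx passed the filter on low counts through their rfISCs libraries, so for them only a rise could be seen, and the count of called members supports nothing further. Other fits gave 6 members higher without the filter, against 17.5% of genes, and 3 with limma on log2(TPM + 1), against 26.1%. The rfISCs libraries lay above both ESCs libraries for 7 of the 9 members and below both for Ncam1, against 29.1% and 28.8% of all genes with a count. Of the 7, Pax3, Neurog2, Zic1, Dcx and Fabp7 had 0 counts in ESCs replicate 2, so they could not lie below both. The comparison of positions therefore supports nothing further either. Bulk RNA cannot tell fewer cells of a kind from less RNA per cell, which holds for each level given here.

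**Figure D1:**
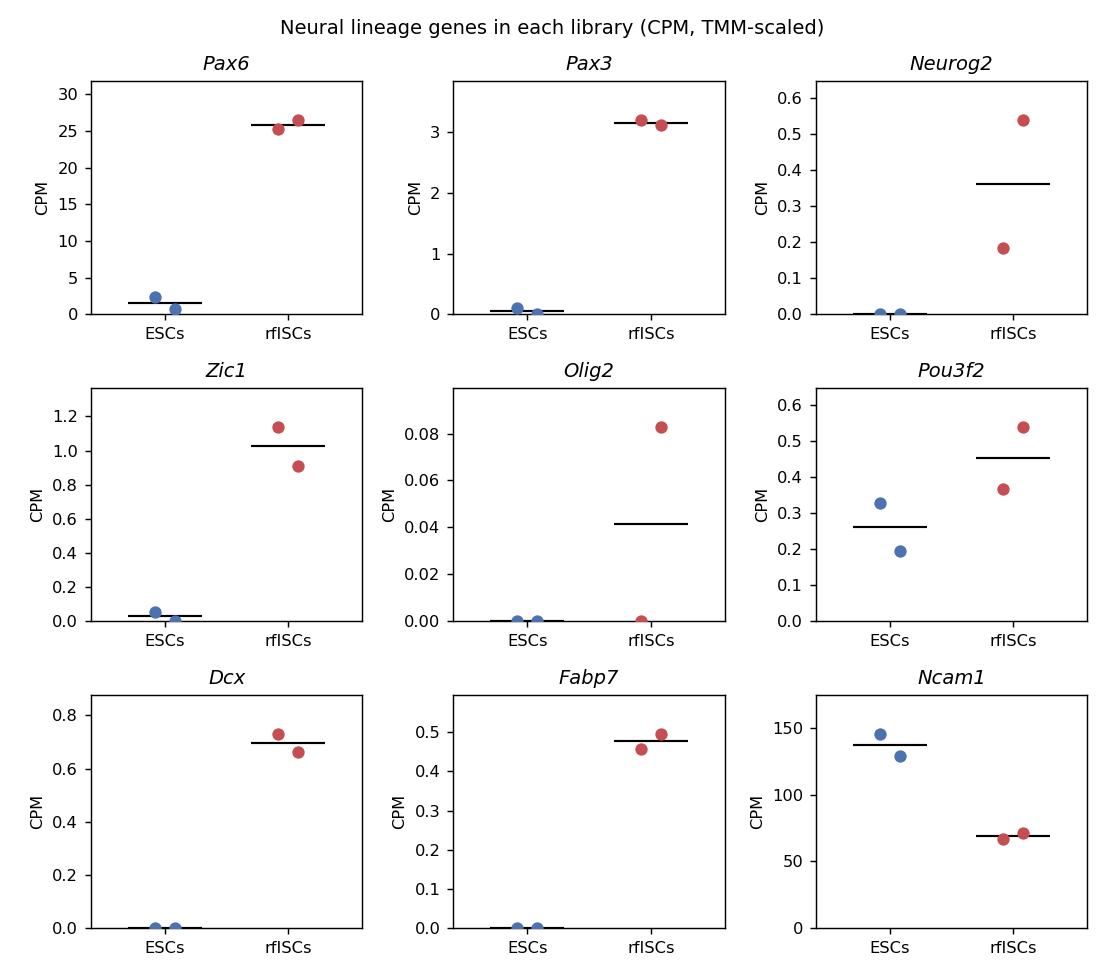
Level of each of the 9 neural lineage genes in CPM (TMM-scaled), with 1 point per library, a bar at the group mean of 2 libraries and an axis of its own for each gene. Pax6 stood at 25.2 and 26.5 CPM in rfISCs, Ncam1 was lower in rfISCs (66.6 and 71.3 CPM) than in ESCs (146 and 129 CPM), and Olig2 had no counts outside rfISCs replicate 2.

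Pax6, a paired and homeodomain factor of the neural plate, eye and pancreas, had the highest summed TPM of the members in rfISCs. In CPM Ncam1 was higher there, at 66.6 and 71.3 against 25.2 and 26.5 for Pax6. Pax6 lies on the plus strand of chromosome 2. Its counts were 43 and 15 in ESCs and 552 and 639 in rfISCs. The rfISCs libraries were alike and the ESCs libraries were far below them, with replicate 1 above replicate 2. In CPM it went from 1.54 ± 1.14 to 25.9 ± 0.882 (SD, n = 2 libraries per group). That is a 17.2-fold rise, with a log2 fold change of 4.10, a standard error (SE) of 0.314 and an adjusted p of 5.88e-06 by edgeR's quasi-likelihood test. The ESCs libraries moved the size of the difference, to a log2 fold change of 5.14 without ESCs replicate 1 and to 3.46 without ESCs replicate 2. Pax6os1, which overlaps Pax6 on the other strand, had 76 and 78 counts in ESCs and 94 and 81 in rfISCs. Whether the counting used strand is not given in the sources used here, so reads of the overlap may be shared between them.

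Pax6 transcripts differ in exon 5a, an alternative exon of 42 bases, or 14 codons, that lies within the paired domain and alters which DNA that domain binds. The exon is shown because Pax6 counts could be divided by it. It lies at chr2:105684751-105684792 on the plus strand (GRCm38, GENCODE M21), is in capitals, and is flanked by the last 15 bases of exon 5 and the first 15 of exon 6 in lower case.
Pax6 with exon 5a: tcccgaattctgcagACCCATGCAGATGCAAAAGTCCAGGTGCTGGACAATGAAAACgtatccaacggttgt
Pax6 without exon 5a: tcccgaattctgcaggtatccaacggttgt

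Transcripts that join exon 5 straight to exon 6 held most of the Pax6 counts in rfISCs. Transcripts with exon 5a took 19.2% (95% Wilson interval 15.9 to 23.1) of 447.4 assignable counts in rfISCs replicate 1. In replicate 2 they took 21.2% (18.1 to 24.9) of 550.3 counts. The intervals of the replicates overlapped, and they cover counting error only. In ESCs the share was 77.5% (60.5 to 89.8) of 28.45 counts in replicate 1 and 57.1% (25.0 to 84.2) of 6.83 counts in replicate 2. Both ESCs shares lay above both rfISCs shares, but they rest on few counts, and 18.97 of the 22.04 exon 5a counts of ESCs replicate 1 came from Pax6-201 alone. The difference in share between the groups was not tested, since the exact permutation test of a single value cannot give a two-sided p below 0.333 with 2 libraries per group.

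Some exon 5a transcripts of Pax6 were far apart between the rfISCs replicates, although the share of their class was not. Pax6-225, with exon 5a, had 0 and 64.47 counts in the rfISCs replicates, and Pax6-205, also with exon 5a, had 16.5 and 0. Pax6-206, another exon 5a transcript, had 60.24 and 31.24. Abundant transcripts that join exon 5 to exon 6 were closer, with 65.48 and 82.74 counts for Pax6-202 and 49.18 and 44.91 for Pax6-203. Such gaps were not limited to exon 5a transcripts, since Pax6-210, of neither class, had 65.54 and 32.01. The division of reads between these near-identical transcripts was made by a tool that is not given in the sources used here.

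Pax6 transcripts also begin at different places, and their windows are shown because the counts could be divided by first exon. The RefSeq promoter table (GRCm38.p6) holds 2 windows for Pax6, each from 250 bases before a start to 50 after it. The first, chr2:105668646-105668945 (plus strand), belongs to the upstream start, and the second, chr2:105682213-105682512 (plus strand), to an internal start in the gene body. Capitals mark the motifs found, CCAAT in the first and ACAAAG, a core letter string of SOX factor sites, in the second.
Pax6 upstream start: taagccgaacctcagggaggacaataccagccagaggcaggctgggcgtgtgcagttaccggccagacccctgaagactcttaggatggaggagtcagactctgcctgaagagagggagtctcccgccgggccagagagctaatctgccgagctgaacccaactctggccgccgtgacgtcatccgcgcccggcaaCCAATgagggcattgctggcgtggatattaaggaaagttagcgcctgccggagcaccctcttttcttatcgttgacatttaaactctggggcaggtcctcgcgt
Pax6 internal start: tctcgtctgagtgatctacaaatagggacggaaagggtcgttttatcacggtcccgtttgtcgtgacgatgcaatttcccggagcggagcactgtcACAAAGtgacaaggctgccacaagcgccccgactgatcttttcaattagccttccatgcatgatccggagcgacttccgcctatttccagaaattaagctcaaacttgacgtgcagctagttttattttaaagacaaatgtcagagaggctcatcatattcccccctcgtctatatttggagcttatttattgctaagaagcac

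Most Pax6 counts in rfISCs came from transcripts of the upstream start and of a second start that lies 6209 to 7229 bases downstream of it. The second start held 48.2% (44.0 to 52.4) and 55.6% (51.7 to 59.4) of Pax6 counts in the rfISCs replicates. The upstream start held 41.9% (38.0 to 46.2) and 29.5% (26.0 to 33.1). The counting intervals of the replicates overlapped for the second start and not for the upstream start, and they do not cover how reads were divided between similar transcripts. Internal start transcripts held 0.699% (0.282 to 1.85) and 1.14% (0.532 to 2.24).

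Of the 53 member transcripts, 38 had a count and 17 were tested in a fit over all 50163 tested transcripts. edgeR's quasi-likelihood test called 1 of the 17, against 3.68% of all tested transcripts, and 13 of the 17 had an unadjusted p under 0.05, against 22.8% of all tested transcripts. The called transcript was Pax6-204, of the second start and without exon 5a. It had 0 and 0.96 counts in ESCs and 126.22 and 161.75 in rfISCs. Its log2 fold change was 7.67 with an SE of 0.955 and an adjusted p of 0.0465 by edgeR, and the call was lost when any 1 of the 4 libraries was left out. Without the filter edgeR called 3, against 2.86% of transcripts. DESeq2 called 14 member transcripts, against 16.6% of transcripts with an adjusted p, and the authors' deposited table also had 14 at an adjusted p under 0.05, against 6.81% of its rows. The authors' deposited table gave Pax6-204 a log2 fold change of 7.97 and an adjusted p of 3.04e-06.

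**Figure D2:**
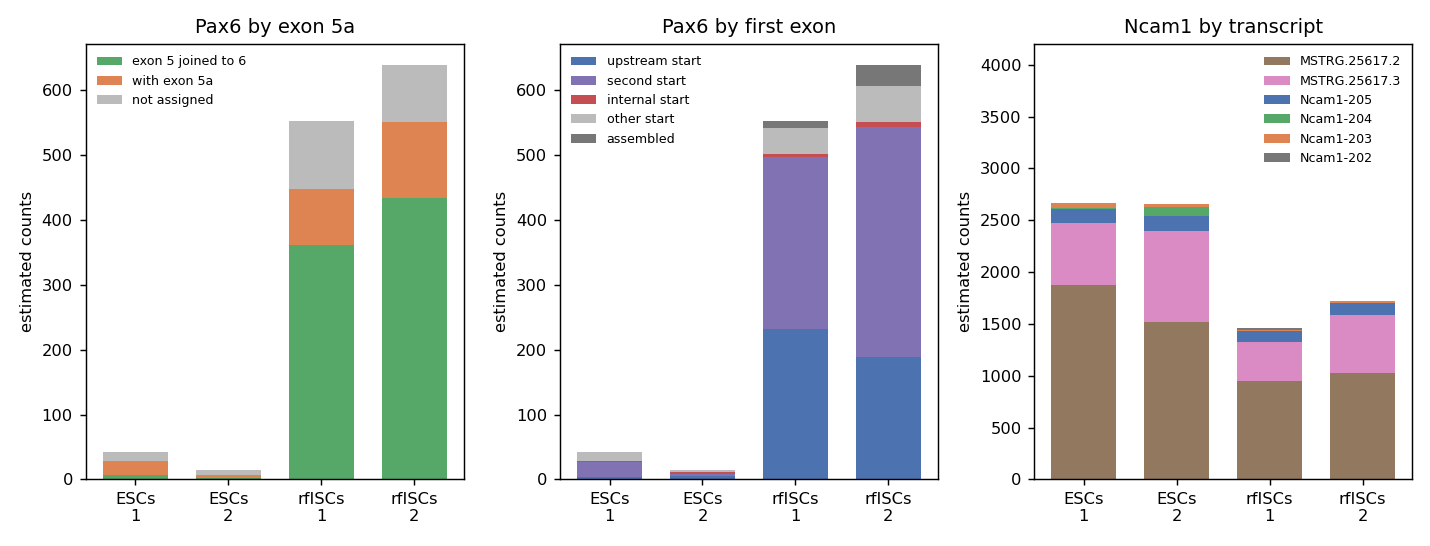
Estimated counts of Pax6 by exon 5a class (left) and by first exon (middle), and of Ncam1 by transcript (right), as stacked bars per library, where MSTRG marks transcripts assembled by the authors. In rfISCs the exon 5a class took 19.2% and 21.2% of assignable Pax6 counts, and the 2 assembled Ncam1 transcripts together took 90.2% to 92.9% of Ncam1 counts in the 4 libraries.

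Pax3, a paired-box factor of the dorsal neural tube and neural crest, and in the mesoderm of somites and muscle precursors, was nearly silent in ESCs and low in rfISCs. It lies on the minus strand of chromosome 1. Its counts were 2 and 0 in ESCs and 70 and 75 in rfISCs. The rfISCs libraries agreed closely, and the groups did not overlap. Levels were 0.109 and 0 CPM in ESCs and 3.20 and 3.11 CPM in rfISCs, a ratio of 61.3 with an exact conditional 95% counting interval of 16.7 to 511. The fitted log2 fold change was 5.78 with an SE of 0.682 (edgeR adjusted p = 9.66e-05). It was 9.13 where ESCs replicate 1 was left out, so that only the ESCs library with no counts stayed, and 4.78 where ESCs replicate 2 was. The main coding transcripts shared the rfISCs counts, Pax3-201 with 39.62 and 29.3 and Pax3-202 with 24.94 and 44.25, and the order of this pair was opposite in the replicates.

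Zic1, a zinc finger factor that acts early in neural plate and cerebellar development, followed the same form at a lower level. It lies on the minus strand of chromosome 9. Its counts were 1 and 0 in ESCs and 25 and 22 in rfISCs. Both rfISCs libraries stood well above both ESCs libraries, at 1.14 and 0.912 CPM. The ratio was 39.8 with a 95% counting interval of 6.80 to 1600, and the log2 fold change was 5.03 with an SE of 0.919 (edgeR adjusted p = 0.00144). Leaving out ESCs replicate 1 gave 7.52, and leaving out ESCs replicate 2 gave 4.09. In fits over transcripts, Zic1-202, with most of the Zic1 counts, had an adjusted p of 0.139 by edgeR and 0.0573 by DESeq2. The authors' deposited table gave it an adjusted p of 0.0541. Zic4, which overlaps Zic1 on the other strand, had 0 counts in both ESCs libraries and 1 and 5 in rfISCs.

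Neurog2, a proneural basic helix-loop-helix factor that pushes progenitors towards neurons, had 0 counts in both ESCs libraries and 4 and 13 in rfISCs. It lies on chromosome 3. The rfISCs libraries differed more from each other than those of Pax6, Pax3 or Zic1, at 0.183 and 0.539 CPM. Set against a floor of 3 counts over the ESCs group, or 0.0771 CPM, Neurog2 was at least 4.79-fold higher in rfISCs. This bound takes the rfISCs counts as exact and does not cover their counting error. The bound was 2.37-fold with rfISCs replicate 1 alone and 6.99-fold with rfISCs replicate 2 alone. The gene did not pass the filter. Without the filter edgeR's quasi-likelihood test gave an adjusted p of 0.0176, in a fit whose p-values rest on the trend across genes. DESeq2 gave the gene no adjusted p. In fits over transcripts, the only Neurog2 transcript had an adjusted p of 0.173 by DESeq2 and 0.371 by edgeR without the filter. In the authors' deposited table the adjusted p of that transcript was 0.161.

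Pou3f2, also known as Brn2, a POU factor of neural progenitors and neurons, was at the edge of detection in every library. It lies on chromosome 4 and has a single exon. Its counts were 6 and 4 in ESCs and 8 and 13 in rfISCs. The rfISCs libraries were higher than the ESCs libraries, but the ratio of 1.78 had a 95% counting interval of 0.801 to 4.23, which includes no difference. Without the filter the adjusted p by edgeR's quasi-likelihood test was 0.603, and it ran from 0.418 to 0.751 over all alternatives that tested the gene.

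Olig2, the basic helix-loop-helix factor of motor neuron and oligodendrocyte progenitors on chromosome 16, had 2 counts in all. Both were in rfISCs replicate 2, and the groups overlapped. A count of 0 allows up to 0.164 and 0.146 CPM in the ESCs libraries and 0.137 CPM in rfISCs replicate 1, and no fold is given. Olig2 was therefore not detectable at this depth in 3 of the 4 libraries.

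Dcx, which encodes the microtubule-binding protein doublecortin of migrating young neurons, had 0 counts in both ESCs libraries and 16 in each rfISCs library. It lies on the minus strand of the X chromosome. The rfISCs libraries were equal in counts and stood at 0.732 and 0.663 CPM. With its rfISCs counts taken as exact, Dcx was at least 9.02-fold higher in rfISCs against the floor of 3 counts over the ESCs group. Its edgeR adjusted p was 0.00228. Its fitted log2 fold change of 6.90 depends on the small count that edgeR adds to a group at 0 and is no bound. Of its 6 transcripts, Dcx-201 held 16.0 and 15.61 of these counts. Per length, Dcx was at 0.11 and 0.12 TPM, and 1.06% of tested genes had a lower mean TPM in rfISCs.

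Fabp7, a fatty acid binding protein of radial glia, had 0 counts in both ESCs libraries and 10 and 12 in rfISCs. It lies on the plus strand of chromosome 10. The rfISCs libraries agreed, at 0.457 and 0.497 CPM. With its rfISCs counts taken as exact, Fabp7 was at least 6.20-fold higher against the same floor. Its transcript is short, so these few counts came to 1.14 and 1.22 TPM, close to Pax3 at 1.44 and 1.32 TPM. It was left out of the main test by the filter, while the adjusted p ran from 0.00341 to 0.0255 over the alternatives that tested it, which were edgeR without the filter, without ESCs replicate 1 and without ESCs replicate 2, DESeq2 and limma on log2(TPM + 1). In the authors' deposited table the adjusted p of Fabp7-201 was 0.0662.

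Ncam1, the gene of the neural cell adhesion molecule, was the only member called lower. It lies on the minus strand of chromosome 9. Its counts were 2668 and 2656 in ESCs and 1457 and 1719 in rfISCs. Both rfISCs libraries were below both ESCs libraries, and the gap was larger than the spread within either group. The level fell 1.99-fold, from 137 ± 11.7 to 68.9 ± 3.28 CPM (SD, n = 2 libraries per group), with a log2 fold change of -0.99, an SE of 0.0776 and an edgeR adjusted p of 6.79e-06. Leaving out any 1 library gave -1.08 to -0.91. Gm11149, which overlaps Ncam1 on the other strand, had 1 to 3 counts in each library.

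Nearly all Ncam1 counts lay in 2 transcripts that the authors had assembled and that carry no Ensembl ID. The assembled transcript of 6128 bases took 70.3% and 57.1% of Ncam1 counts in ESCs and 65.2% and 59.4% in rfISCs. The assembled transcript of 6174 bases took 22.6% and 33.1% in ESCs and 25.5% and 33.0% in rfISCs. The groups overlapped for both shares, and the counts of both transcripts were lower in each rfISCs library than in either ESCs library. With the assembled transcripts left out, Ncam1 had 190 and 260 counts in ESCs and 135 and 130 in rfISCs, and a log2 fold change of -1.01 (SE 0.200, edgeR adjusted p = 0.0123).

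The Ensembl transcript of Ncam1 with most counts was Ncam1-205, which includes an 801-base exon and a 30-base exon known as VASE, an insert in an immunoglobulin domain. The 30-base exon is shown because this transcript includes it, at chr9:49550540-49550569 on the minus strand (GRCm38, GENCODE M21), in capitals between 15 bases of each neighbouring exon. Whether the assembled transcripts, which held most Ncam1 counts, also include this exon was not read.
Ncam1 30-base exon: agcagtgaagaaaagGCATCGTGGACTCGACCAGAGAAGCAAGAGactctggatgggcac
Ncam1-205 had 135.88 and 141.78 counts in ESCs and 113.29 and 110.32 in rfISCs, with a log2 fold change of -0.52 (SE 0.264, edgeR adjusted p = 0.357). Ncam1-204 had 8.39 and 86.16 counts in ESCs and none in either rfISCs library, and its ESCs replicates were far apart. DESeq2 gave Ncam1-204 an adjusted p of 0.00164, while edgeR's filter left it out.

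Per length, the order of the members in rfISCs was Pax6 (19.1 ± 2.31 TPM), Ncam1 (16.4 ± 0.707), Pax3 (1.38 ± 0.0849), Fabp7 (1.18 ± 0.0566), Zic1 (0.47 ± 0.0424), Neurog2 (0.25 ± 0.17), then Dcx and Pou3f2 at 0.115 and Olig2 at 0.025 TPM (mean ± SD, n = 2 libraries). Pax6 and Ncam1 were apart by about the spread of Pax6, and Dcx and Pou3f2 overlapped. The non-coding transcript Pax6-210, of 983 bases, held 5.64 and 2.47 of the Pax6 TPM in the rfISCs replicates. Without Pax6-210 the Pax6 sum would lie below Ncam1 in both replicates, so the order of this pair depends on it. In ESCs the order was led by Ncam1 at 29.1 ± 2.75 TPM, far above Pax6 at 1.00 ± 0.495 TPM. Pax6 in rfISCs had a higher TPM than 62.2% of tested genes, Ncam1 than 58.6%, Pax3 than 19.0%, Fabp7 than 17.1%, Zic1 than 7.71% and Neurog2 than 3.28%.

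The promoter table held 9 windows of 300 bases for 7 of the members. The count of CG dinucleotides ranged from 31 in the Zic1 window, above 89.4% of the 32851 windows of that length, to 3 in each Dcx window, above 23.3%. The median over all windows was 7. These windows are shown as the extremes among members that were at 0 or 1 count in ESCs. Zic1 is at chr9:91365719-91366018 and Dcx at chrX:143933170-143933469, both on the minus strand in GRCm38.p6, and capitals mark CCAAT and TATAAA.
Zic1: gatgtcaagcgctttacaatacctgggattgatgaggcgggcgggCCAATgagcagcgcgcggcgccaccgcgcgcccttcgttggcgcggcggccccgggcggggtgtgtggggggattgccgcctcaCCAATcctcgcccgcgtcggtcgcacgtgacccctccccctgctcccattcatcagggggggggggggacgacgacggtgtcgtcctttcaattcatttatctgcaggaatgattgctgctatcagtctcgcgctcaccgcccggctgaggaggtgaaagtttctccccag
Dcx: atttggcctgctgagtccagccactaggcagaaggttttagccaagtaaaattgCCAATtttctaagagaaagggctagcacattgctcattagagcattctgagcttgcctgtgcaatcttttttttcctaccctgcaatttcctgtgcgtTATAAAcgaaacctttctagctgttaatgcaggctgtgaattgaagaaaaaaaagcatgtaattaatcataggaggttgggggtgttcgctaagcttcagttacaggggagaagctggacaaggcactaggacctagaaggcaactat

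The 6 motifs given here were searched on both strands, without regard to overlaps. CCAAT was in 7 of the 9 member windows and in 37.4% of all windows. TATAAA was in 3, of which the 2 Dcx windows overlap each other, and in 13.6% of all windows. ACAAAG was in 2 member windows and the E-box CAGATG in 1, against 18.7% and 17.2% of all windows. The E-box CAGCTG and the octamer ATTTGCAT, found in 16.3% and 1.74% of all windows, were in no member window. A match is a description of letters and not of a bound site.

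The families of the members were read in TPM, summed over transcripts. Zic1 made up 0.250% and 0.215% of the summed Zic TPM in the rfISCs libraries. Pou3f2 made up 0.487% and 0.812% of the Pou3f TPM in rfISCs, where Pou3f1, a formative and neural POU factor, was the main member. Dcx made up 0.538% and 0.584% of the doublecortin family and Fabp7 made up 0.481% and 0.506% of the Fabp family. Ncam1 was 99.4% to 100% of the Ncam TPM in all libraries. Pax6 made up 82.7% and 54.0% of the Pax TPM in rfISCs, where Pax7 was at 0.74 and 11.19 TPM on 56 and 71 counts.

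Of 25 family paralogs 16 were tested, 10 rose and 2 fell, with a median log2 fold change of 1.29 against 0.00 over all tested genes. Of all tested genes 27.3% rose and 26.4% fell. Pax2, of the midbrain and kidney, rose from 1 count over both ESCs libraries to 57 and 76 in the rfISCs libraries, and the ratio was 113 (95% counting interval 19.9 to 4480). Pax7, of the dorsal neural tube, had 0 and 7 counts in ESCs and 56 and 71 in rfISCs and rose with a log2 fold change of 3.91 (2.99 without ESCs replicate 1 and 8.89 without ESCs replicate 2). Pax5 and Pax8 did not pass the test, at log2 fold changes of 0.02 and 1.39. Zic2 rose 1.48-fold from 110 ± 20.1 CPM and Zic5 rose 1.27-fold from 78.1 ± 5.77 CPM. Olig3, of dorsal progenitors, rose 10.8-fold to 5.39 ± 1.17 CPM. Its log2 fold change of 3.44 became 4.43 with ESCs replicate 1 left out and 2.81 with ESCs replicate 2 left out. For Pax2, at 6.52, these values were 5.73 and 8.95. Neurog3, of endocrine progenitors, did not pass (log2 fold change 1.19), but was called at 3.66 with ESCs replicate 2 left out and stood at 0.37 with ESCs replicate 1 left out.

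Among the other paralogs, Pou3f1 rose to 44.4 ± 0.864 CPM, whereas Pou3f3 went from 0.437 to 1.32 CPM and its call was lost without any 1 of the 4 libraries. Dclk1, a doublecortin-like kinase, rose 44.3-fold to 11.6 ± 0.300 CPM, Dclk2 stayed uncalled at 77.2 ± 4.60 and 74.1 ± 2.43 CPM, and Dclk3 fell 11.4-fold, with 24 and 77 counts in ESCs. The log2 fold change of Dclk3 was -3.51, and it was -4.07 when ESCs replicate 1 was left out and -2.55 when ESCs replicate 2 was. Fabp5 rose 6.26-fold to 57.4 ± 0.998 CPM, and Fabp3 fell 3.69-fold from 208 ± 3.22 CPM. Adjusted p-values of these called paralogs by edgeR's quasi-likelihood test ran from 1.86e-08 for Pou3f1 to 0.0267 for Pou3f3.

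**Figure D3:**
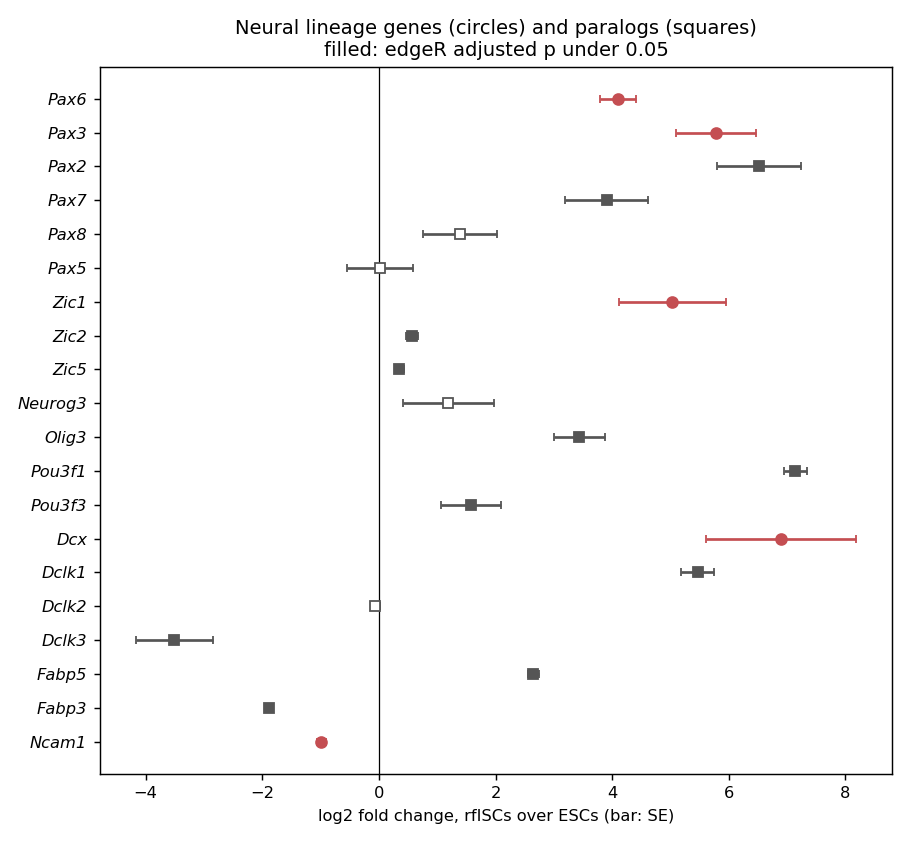
Fitted log2 fold change of rfISCs over ESCs for the 5 tested members (circles) and 15 tested paralogs (squares), with bars of 1 SE and filled symbols where the edgeR adjusted p is under 0.05. Dclk3, Fabp3 and Ncam1 lie left of 0 and filled, and the fitted value of Dcx, 6.90, is not a bound because its ESCs counts are 0.

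Other genes of the neural pathway were described by lists that include none of the 9 members. Their counts are to be read beside all tested genes, of which 27.3% rose and 26.4% fell. Folds given as at least use the floor of 3 counts over the ESCs group and take the rfISCs counts as exact. Of 24 neural plate and progenitor genes, 23 were tested, 19 rose and none fell (4 did not pass), with a median log2 fold change of 2.45. En1, of the midbrain and hindbrain boundary, had 0 counts in both ESCs libraries and 102 and 124 in rfISCs and was at least 63.7-fold higher. Six3, of the anterior plate, had 0 against 28 and 51 and was at least 22.3-fold higher. Of 18 proneural and neuronal transcription factor genes, 11 were tested and 7 rose, with a median of 3.33. Ebf2 had 2 counts in ESCs and 65 and 53 in rfISCs, and the ratio was 49.9 (95% counting interval 13.5 to 417). Its log2 fold change of 5.50 was 4.65 with ESCs replicate 1 left out and 8.79 with ESCs replicate 2 left out. Neurod6 had no counts in any library.

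All 18 neuronal differentiation genes were tested, with 11 higher, 2 lower and a median of 0.77. Crmp1, of axon growth, rose 10.9-fold to 158 ± 1.11 CPM and Snap25, of synaptic vesicle fusion, rose 6.76-fold to 2.64 ± 0.337 CPM. Stmn2 fell 1.43-fold from 279 ± 10.1 CPM. Elavl2 was called lower (log2 fold change -0.34, edgeR adjusted p = 0.0209), a call that ended with library totals as the scaling (-0.26, adjusted p = 0.0644) and without rfISCs replicate 2.

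Of 12 glial genes, 10 were tested, 5 rose and 1 fell, with a median of 0.93. Sox9 went from 0 counts in ESCs to 140 and 154 and was at least 82.9-fold higher, and the glutamate transporter gene Slc1a2 had 1 against 48 and 57. Aldh1l1 fell 2.71-fold. Of 15 dorsoventral patterning genes, 12 were tested, 9 rose and 1 fell, with a median of 2.82. Wnt1, a dorsal midline and midbrain signal, went from 0 counts in ESCs to 348 and 327 and was at least 190-fold higher, and Dbx1, of intermediate progenitors, had 0 against 31 and 27. Msx2 fell 3.02-fold. Over these 5 lists and the paralogs, 61 of 90 tested genes rose and 6 fell, against 27.3% and 26.4% of all tested genes. The median over these lists was 1.68. The 7 tested genes with no ESCs counts all have bounds above that median, so setting them at their bounds leaves it at 1.68 by construction.

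NCAM carries polysialic acid in the nervous system, added by the enzymes of St8sia2 and St8sia4. Of 11 genes for polysialylation and NCAM partners, 9 were tested, 7 rose and none fell, and 2 did not pass, with a median of 1.24. Among all tested genes 27.3% rose and 26.4% fell. St8sia2 had 3 and 3 counts in ESCs and 127 and 108 in rfISCs, a 32.1-fold rise, in libraries where Ncam1 was lower. Gfra1, a receptor subunit that binds NCAM, went from 1 and 12 counts in ESCs to 75 and 119 in rfISCs, a log2 fold change of 3.64, with 2.83 when ESCs replicate 1 was left out and 6.12 when ESCs replicate 2 was.

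**Figure D4:**
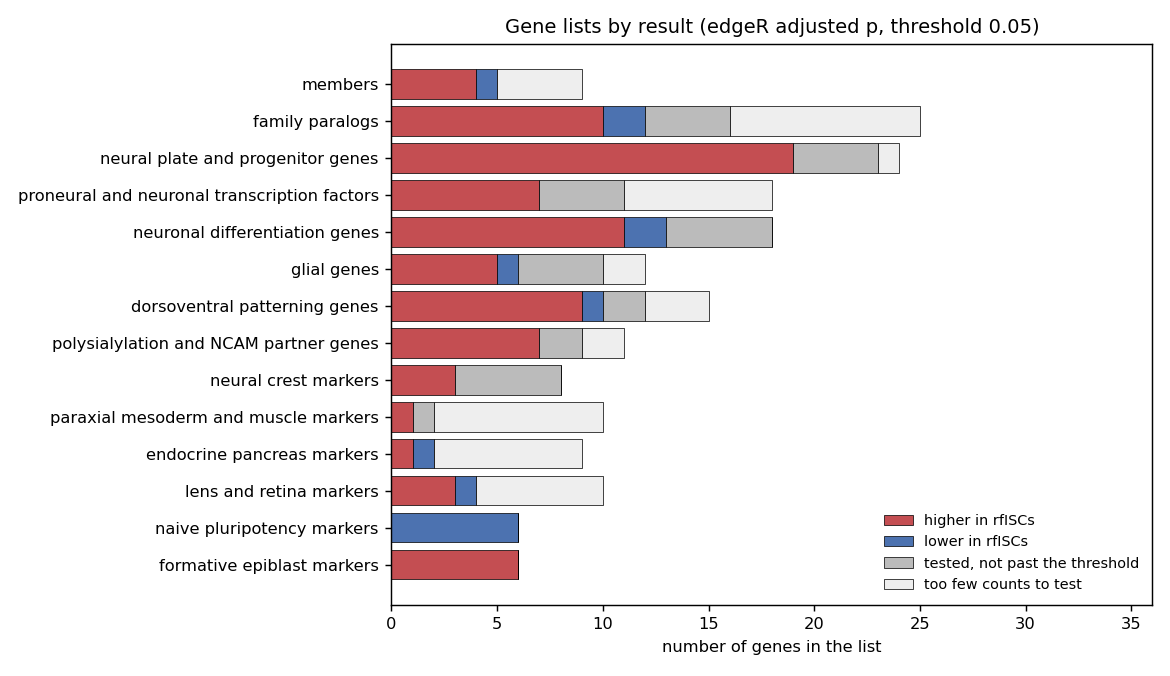
Number of genes of each list that were called higher or lower in rfISCs, were tested without passing, or had too few counts to test (edgeR's quasi-likelihood test, adjusted p under 0.05). The bar of neural plate and progenitor genes has 19 of 24 genes called higher, whereas 8 of 10 paraxial mesoderm and muscle markers had too few counts to test.

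Since Pax3 and Pax6 are also used outside the neural lineage, markers of those cells were read beside them. Over all tested genes 27.3% rose and 26.4% fell. Of 8 neural crest markers, all tested, 3 rose and 5 did not pass, while 5 rose with library totals as the scaling. The summed level was 13.3 and 15.4 CPM in ESCs and 24.1 and 21.5 CPM in rfISCs. Tfap2b had 0 counts in ESCs and 21 in each rfISCs library, and Sox10 had 0 and 3 against 24 and 17, a call lost without rfISCs replicate 1. Their part in the level of Pax3 was not tested. Of 10 paraxial mesoderm and muscle markers 2 were tested, the summed level was 10.1 and 6.70 CPM in ESCs and 11.7 and 5.80 CPM in rfISCs, and Myf5 and Myf6 were at 0 in all libraries. Meox1 was called higher, at 0.152 and 0.610 CPM, but not without any 1 library.

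Of 9 endocrine pancreas markers only 2 were tested, of which 1 rose and 1 fell (Mafa, 2.94-fold). Ins1, Gcg and Iapp had no counts. The summed level was 4.64 and 6.07 CPM in ESCs and 7.32 and 4.64 CPM in rfISCs. Of 10 lens and retina markers only 4 were tested, of which 3 rose and 1 fell, against 27.3% and 26.4% of all tested genes. Prox1 rose 9.53-fold (log2 fold change 3.25, with 4.64 when ESCs replicate 1 was left out and 2.51 when ESCs replicate 2 was), Maf had 1 count in each ESCs library and 37 and 21 in rfISCs, and Mitf fell 2.64-fold. The lens crystallin genes Cryaa and Crygs were at 0 in all libraries. The summed level of that list was 27.9 and 28.3 CPM in ESCs and 21.4 and 18.9 CPM in rfISCs. Mitf alone held 25.1 and 26.6 CPM of it in ESCs and 10.7 and 8.91 CPM in rfISCs, and the other 9 genes summed to 2.83 and 1.70 CPM in ESCs and 10.7 and 9.99 CPM in rfISCs. Their part in the level of Pax6 was not tested.

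**Figure D5:**
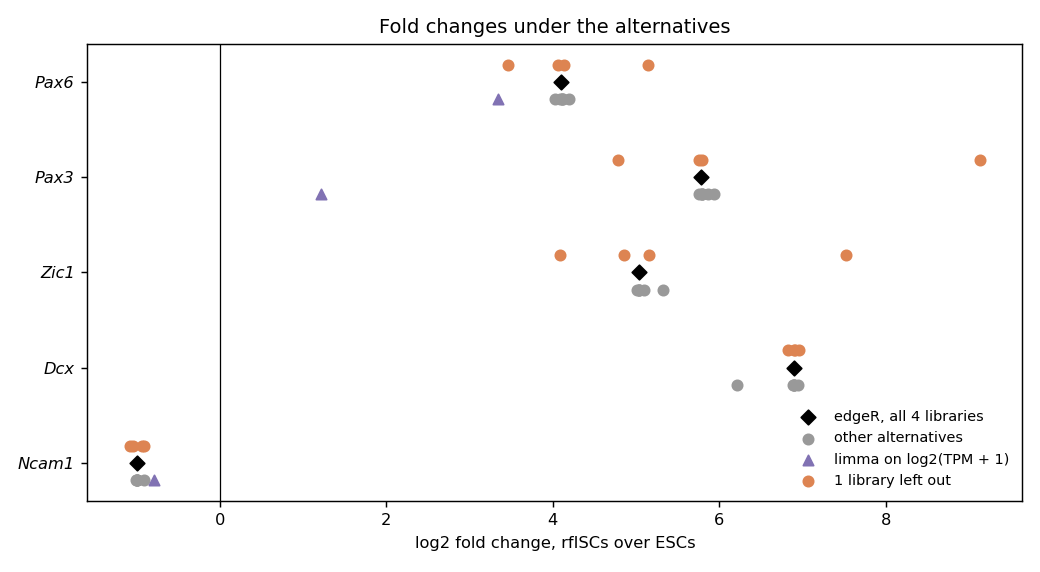
Log2 fold change of the 5 tested members with all 4 libraries (diamonds), with 1 library left out (orange circles), with other scalings, filters and tests (grey circles) and with limma on log2(TPM + 1) (triangles). Every value keeps the side of 0 of the edgeR result, and Pax3 spans the widest range, 1.22 to 9.13. The 1.22 is from limma, which is on another scale and gave no value for Zic1 and Dcx. Without limma Pax3 spans 4.78 to 9.13.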

How the data were processed

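The authors deposited 1 table with estimated counts of reads and TPM for each transcript in each library, the authors' mean TPM of each group (not used), and, per the file headers, a fold change as a ratio and on the log2 scale, with its p-value before and after adjustment. Bowtie 0.12.2 and the build mm9 appear, with no role stated, per the submitters' processing notes. The tools of assembly, quantification and testing are not given in the sources used here. Of 142434 Ensembl transcript IDs, 138302 were in GENCODE M21 (GRCm38) and 99.6% of those had the same length, as did all 50 of the members, so exon structures were read from it. Gene coordinates are not given because the table has none.

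Estimated counts were summed by gene name, rounded, and filtered by filterByExpr (minimum count 10), and transcripts without a name (1.22% to 1.62% of counts) were left out. The test was edgeR 4.0.16 (quasi-likelihood, TMM, R 4.3.3) on all 4 libraries with the group as its term, with Benjamini-Hochberg adjustment over all genes or transcripts and a threshold of 0.05. SE is the log2 fold change over the square root of F. Other tools were DESeq2 1.42.0 and limma 3.58.1 on log2(TPM + 1), for genes with a mean TPM of at least 0.5. The tools were checked on simulated data. The replicates differed by more than sampling noise (chi-square per degree of freedom 6.71 and 4.55). Alternatives were other scalings, no filter, other tools, the replicate number as a block, Ensembl transcripts alone and each library left out.

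Members, lists and tests were chosen with earlier results of these data known. Named genes were all members, every tested paralog and, of each other list, up to 2 called genes with the largest rise and up to 2 with the largest fall. Genes listed at 0, and St8sia4 as background, were also named, and a few genes under the rule are not reported here.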

Additional observations from a re-analysis of the deposited data

How the results depend on the processing

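Pax6, Pax3, Zic1, Dcx and Ncam1 kept their direction and their side of the threshold in all 53 combinations of gene and alternative that gave a value. The number of members called higher, 4 in the main test, ran from 3 with limma on TPM to 6 without the filter. With 1 library left out it ran from 4 to 6, and the number called lower was 1 throughout. The fitted log2 fold changes with 1 library left out spanned 3.46 to 5.14 for Pax6, 4.78 to 9.13 for Pax3, 4.09 to 7.52 for Zic1, 6.82 to 6.96 for Dcx and -1.08 to -0.91 for Ncam1. Over the other neural lists and the family paralogs together, genes called higher ran from 47 to 66 in the alternatives with all libraries kept. Those called lower ran from 4 to 6.

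The number of member transcripts called depended on the processing. It was 1 in the main test, 3 without the filter and 14 with DESeq2. With the replicate block edgeR called 0 of 17, with 9 at an unadjusted p under 0.05. With 1 library left out edgeR called 0 to 0, with 7 to 14 at an unadjusted p under 0.05 (DESeq2 on all libraries called 14), and the cause was not tested. Deviations of same-numbered libraries correlated at -0.0149 across genes, so no shared shift was seen. With 2 libraries per group this cannot exclude that same-numbered libraries were paired. The block changed no call of a member gene. Library totals shifted the median log2 fold change of all genes by 0.08. In the gene fits without the filter or without an ESCs library edgeR estimated infinite prior degrees of freedom, against 7.11 in the main test. The p-values of those gene fits therefore rest on the trend across genes. In the transcript fits the prior degrees of freedom were finite, at 1.91 in the main test and 3.93 without the filter. Depth limits Olig2, Pou3f2, Neurog2 and Fabp7, which held 2 to 31 counts in all 4 libraries together.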
